A study of Mus musculus with 4 samples.

Results

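The 7 genes described here encode the inhibitors of cyclin-dependent kinases in the mouse: the Cip/Kip genes Cdkn1a, Cdkn1b and Cdkn1c and the Ink4 genes Cdkn2a, Cdkn2b, Cdkn2c and Cdkn2d. They were chosen by gene symbol from 22305 genes that could be named on the arrays. Their values were not used in the choice, but earlier results of these data were known. All 7 were found, on 8 probe sets, and all passed the filter on low signals. Where a gene had more than 1 probe set, the brighter was tested and both are given.

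Expression was read on 4 Affymetrix Mouse Gene ST 1.0 arrays from primary rib chondrocytes, the cartilage-forming cells of the rib cage. Of these, 2 came from wild-type mice (Wt) and 2 from Eed conditional knockout mice (Eed cKO). All pups were newborn (0.5 days old), of a mixed C57B6 and 129Sv background, and all cells were cultured overnight with serum. The Eed cKO pups carried floxed Eed alleles and a Cre transgene under the Col2a1 promoter, so deletion depended on cells that had used that promoter. The labels do not say whether an array held the cells of 1 pup or of several, and p-values therefore measure only the spread between these samples.

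Cyclin-dependent kinases drive cells from G1 into S phase once a cyclin is bound to them. Ink4 proteins bind Cdk4 and Cdk6 and keep cyclin D away, whereas Cip/Kip proteins bind whole cyclin-kinase complexes, mainly those of Cdk2. Eed is a core subunit of Polycomb repressive complex 2 (PRC2), which methylates lysine 27 of histone H3, and the Cdkn2a-Cdkn2b locus is among the best known loci under Polycomb repression. In the growth plate, Cdkn1c is known for its part in the exit of chondrocytes from the cell cycle before hypertrophy. The arrays ask which of these inhibitor transcripts differ in level when chondrocytes lose Eed.

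Promoter windows for 6 of the 7 genes (all but Cdkn1c) were matched by symbol in the RefSeq table for GRCm38.p6, and the 250 bases before a start site are used here. They are shown for the neighbouring genes Cdkn2a and Cdkn2b, which moved together on the arrays, and for Cdkn1b, which moved the other way. Capitals mark CG dinucleotides, and all runs read 5′ to 3′ on the gene's own strand. Cdkn2a has 2 start sites, the upstream one for the Arf transcript and the downstream one for Ink4a. The windows lie at chr4:89294620-89294869 (minus strand) for the upstream start of Cdkn2a, chr4:89282193-89282442 (minus) for its downstream start, chr4:89311033-89311282 (minus) for Cdkn2b and chr6:134920151-134920400 (plus) for Cdkn1b.
Cdkn2a upstream start: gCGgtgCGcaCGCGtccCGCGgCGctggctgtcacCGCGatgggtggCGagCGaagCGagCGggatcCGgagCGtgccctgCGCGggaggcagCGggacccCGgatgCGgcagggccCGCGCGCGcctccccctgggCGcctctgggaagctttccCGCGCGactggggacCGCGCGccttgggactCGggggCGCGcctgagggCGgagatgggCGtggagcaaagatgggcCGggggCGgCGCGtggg
Cdkn2a downstream start: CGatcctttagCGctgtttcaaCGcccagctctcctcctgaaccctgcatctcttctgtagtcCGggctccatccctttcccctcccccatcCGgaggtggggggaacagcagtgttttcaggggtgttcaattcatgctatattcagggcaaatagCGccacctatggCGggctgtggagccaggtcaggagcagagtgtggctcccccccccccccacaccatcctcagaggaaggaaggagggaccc
Cdkn2b: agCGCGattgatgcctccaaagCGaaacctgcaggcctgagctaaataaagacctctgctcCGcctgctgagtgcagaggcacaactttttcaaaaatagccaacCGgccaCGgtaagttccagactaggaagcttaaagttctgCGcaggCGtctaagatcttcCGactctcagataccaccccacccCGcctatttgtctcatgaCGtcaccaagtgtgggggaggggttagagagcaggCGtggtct
Cdkn1b: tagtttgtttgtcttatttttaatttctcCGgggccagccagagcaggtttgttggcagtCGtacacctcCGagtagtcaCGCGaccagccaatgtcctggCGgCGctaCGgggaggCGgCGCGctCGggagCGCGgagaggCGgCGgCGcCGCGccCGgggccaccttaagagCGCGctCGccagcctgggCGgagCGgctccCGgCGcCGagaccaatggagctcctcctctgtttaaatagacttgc

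The windows differed widely in CG content. The upstream Cdkn2a window held 40 CG dinucleotides, and 98.7% of the 32851 windows in the table held fewer. The downstream Cdkn2a window held 7 and the Cdkn2b window 12, with fewer in 53.7% and 66.5% of windows, against a median of 6 over all windows. The Cdkn1b window, of the gene that fell, held 28, above 92.4% of windows. A high CG count was thus found both at a gene that rose and at the gene that fell. The letters GGGCGG (the box bound by Sp1 and Klf factors, searched on both strands) were present in 32.7% of all windows. They occurred at the upstream start of Cdkn2a (2 matches) and at Cdkn1b (1 match), and not at the downstream start of Cdkn2a or at Cdkn2b. Among the genes that did not pass, they occurred in 1 window each of Cdkn1a (2 matches), Cdkn2c (3, in a window with 29 CG dinucleotides, above 93.2% of windows) and Cdkn2d (3). CAGACA, the Smad-binding element held by 17.1% of windows, was found in 1 of the 2 windows of Cdkn1a and 1 of the 2 of Cdkn2c. CACGTG, the E-box of Myc and Max held by 6.02% of windows, was in none of the 9 windows of the 6 genes.

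Over the whole arrays, 14944 genes were tested with limma and Benjamini-Hochberg adjustment. At an adjusted p under 0.05, 1439 genes (9.63%) were higher and 894 (5.98%) lower in Eed cKO cells, 15.6% in all. Centring each array on the median log2 signal of all 22305 named genes, dim ones included, gave 1169 (7.82%) higher and 1556 (10.4%) lower. The median log2 difference of the tested genes was 0.00 before centring. Centring shifted their differences by -0.047, so the split between directions rests on the scaling. Eed itself read 3597 and 3530 in Wt and 1057 and 990.28 in Eed cKO cells (-1.77 on the log2 scale, SE 0.07, limma adjusted p = 7.59e-05). Over all 35512 probe sets the array medians, which were not those used for centring, lay between 830.39 and 837.44. Xist, transcribed from the inactive X chromosome, was at 17820 on Wt 1 and 17196 on Eed cKO 2. On Wt 2 and Eed cKO 1 it was at 3634 and 4845. The Y-linked Ddx3y ran the opposite way, at 191.64 on Wt 1 and 622.34 on Eed cKO 2. On Wt 2 and Eed cKO 1 it read 4664 and 4324. The sex balance of the RNA thus differed within both groups alike. Whether an array held RNA of both sexes was not tested.

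Of the 7 inhibitor genes, 3 rose in Eed cKO cells (Cdkn1c, Cdkn2a and Cdkn2b), 1 fell (Cdkn1b) and 3 did not pass (Cdkn1a, Cdkn2c and Cdkn2d). Among all tested genes 9.63% rose and 5.98% fell. The median log2 difference of the 7 was 0.06, beside 0.00 over all tested genes. The groups did not overlap for 6 of the 7, which held for 60.2% of all tested genes. Of these 6, 4 had the Eed cKO values above those of Wt (31.1% of all tested genes) and 2 below (29.1%). Neither subfamily moved as a block: 1 Cip/Kip gene rose, 1 fell and 1 did not pass, and 2 Ink4 genes rose while 2 did not pass. Signals of different probe sets are not on a common scale, so levels are compared between arrays and never between genes. In bulk RNA, fewer cells of a type and less RNA per cell cannot be told apart.

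**Figure D1:**
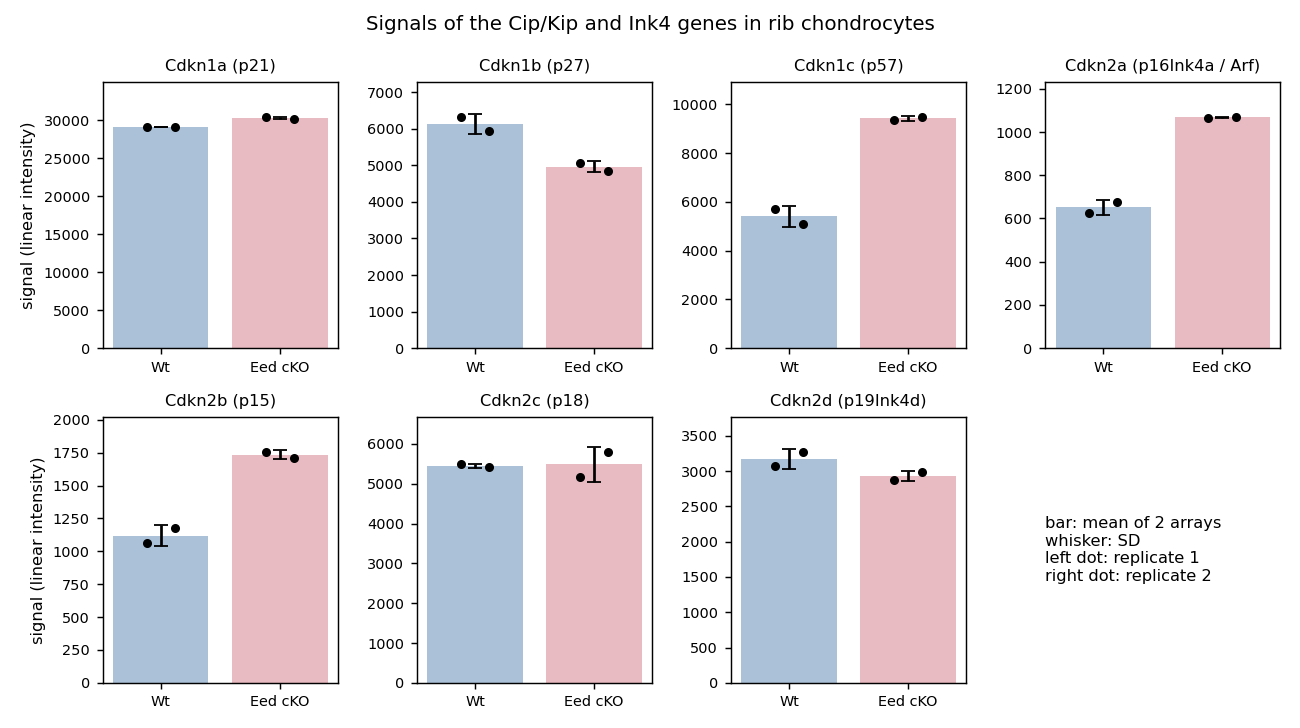
Signal (linear array intensity, each panel with its own axis from 0) of the 7 inhibitor genes on the 2 Wt and 2 Eed cKO arrays, each point 1 array, each bar a group mean and each whisker the SD. The Eed cKO points of Cdkn1c, Cdkn2a and Cdkn2b stand above both Wt points, those of Cdkn1b stand below, and those of Cdkn2c surround the Wt points.

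Cdkn1c, which encodes p57Kip2, an imprinted inhibitor active mainly from the maternal allele, rose the most of the 7. Its signal was 5709 and 5101 on the Wt arrays and 9356 and 9478 on the Eed cKO arrays. The Eed cKO values were nearly level with each other and far above the higher Wt value. The mean went from 5405 ± 430 (SD, n = 2) to 9417 ± 86.0, a ratio of 1.74 and a log2 difference of 0.80 (SE 0.06, 95% confidence interval 0.65 to 0.95, limma adjusted p = 0.000537). A higher log2 difference was found for 1.76% of the tested genes. The smallest log2 gap between a Wt and an Eed cKO array, 0.71, exceeded the gap of 0.16 between the Wt arrays.

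Cdkn1b, which encodes p27Kip1, a general brake on Cdk2 that is held largely by protein turnover, was the 1 gene of the family that fell. It read 6325 and 5937 in Wt and 5067 and 4856 in Eed cKO cells, without overlap. The ratio of means was 0.809, and the log2 difference was -0.30 (SE 0.06, 95% interval -0.44 to -0.17, limma adjusted p = 0.0137). A lower log2 difference was found for 4.3% of tested genes. Its second, dim probe set, which was not tested because the brighter one stood for the gene, read 445.28 and 416.44 in Wt and 365.07 and 317.62 in Eed cKO cells, a ratio of 0.792. Without Wt 1 the Cdkn1b call was lost (log2 difference -0.26, adjusted p = 0.0842).

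Cdkn1a, which encodes p21Cip1, the inhibitor best known as a target of p53, was at 29055 and 29070 in Wt and at 30415 and 30178 in Eed cKO cells. The groups did not overlap, but the shift was small: a ratio of 1.04 and a log2 difference of 0.06 (SE 0.02, 95% interval 0.00 to 0.12, unadjusted p = 0.0404, limma adjusted p = 0.144), a size exceeded by 33.9% of tested genes in the upward direction. Its probe set was among the bright ones on the arrays, whose highest signals were 50696 to 52469, and how far bright signals were compressed was not tested.

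Cdkn2a encodes 2 unrelated proteins from separate first exons, p16Ink4a, which binds Cdk4 and Cdk6, and p19Arf, which keeps Mdm2 from degrading p53. Its 1 probe set read 627.4 and 674.53 on the Wt arrays and 1066 and 1070 on the Eed cKO arrays. The Eed cKO arrays were almost equal and both stood well above Wt. The mean rose from 651 ± 33.3 to 1068 ± 2.18, a ratio of 1.64 (log2 difference 0.69, SE 0.08, 95% interval 0.50 to 0.88, limma adjusted p = 0.0024). The Wt signal was close to the filter level of 625.574, and the signal was not assigned to the Ink4a or the Arf transcript.

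Cdkn2b, which encodes p15Ink4b, known as a TGF-beta-responsive inhibitor, followed the same order of groups. It read 1061 and 1174 in Wt and 1757 and 1711 in Eed cKO cells. The mean rose from 1118 ± 79.5 to 1734 ± 32.5, a ratio of 1.55 (log2 difference 0.62, SE 0.08, 95% interval 0.43 to 0.81, limma adjusted p = 0.00363). Higher log2 differences were found for 2.9% of tested genes, and for 2.44% in the case of Cdkn2a. The intervals of the 2 neighbours overlapped widely, and the difference between their changes was not tested.

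The other two Ink4 genes did not pass. Cdkn2c, which encodes p18Ink4c, read 5492 and 5413 in Wt and 5177 and 5804 in Eed cKO cells, so that the Wt values lay between those of Eed cKO (log2 difference 0.01, SE 0.07, 95% interval -0.15 to 0.16, limma adjusted p = 0.95). Cdkn2d, which encodes p19Ink4d, read 3077 and 3274 in Wt and 2875 and 2983 in Eed cKO cells. Both Eed cKO values of Cdkn2d were below both Wt values, by a log2 gap of 0.04 at the closest, and its log2 difference was -0.11 (SE 0.06, 95% interval -0.27 to 0.04, limma adjusted p = 0.281). These intervals do not include the changes estimated for Cdkn2a and Cdkn2b, but the contrast between the genes was not tested.

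**Figure D2:**
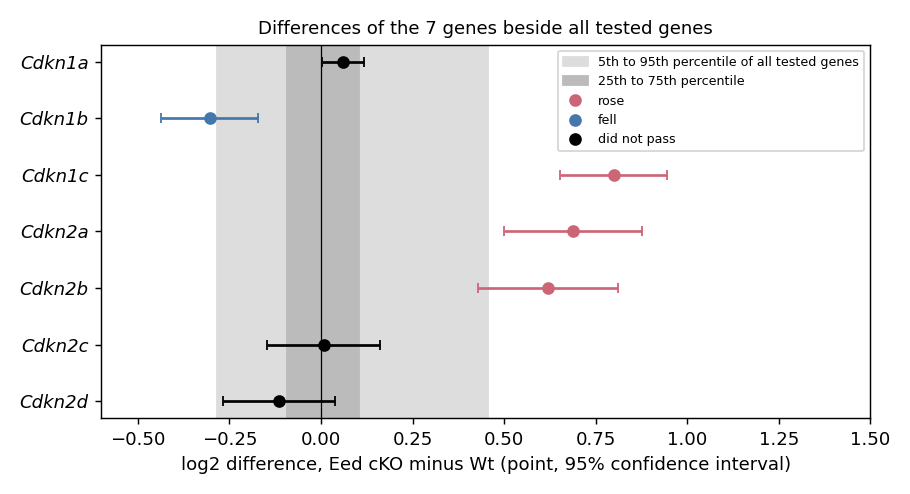
Log2 difference (Eed cKO minus Wt, horizontal axis) of each inhibitor gene, with points for estimates and bars for 95% confidence intervals from limma with n = 2 arrays per group. Shaded bands give the 5th to 95th and the 25th to 75th percentiles of all tested genes. Cdkn1c, Cdkn2a and Cdkn2b lie beyond the 95th percentile of 0.46 and Cdkn1b just beyond the 5th percentile of -0.28.

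The genes next to the inhibitors were examined to see whether changes extended along the chromosome. Places were counted in the RefSeq order over genes measured on the arrays, and unmeasured genes were passed over. Of 36 genes within 3 such places of an inhibitor gene, 30 were tested. Of these, 4 rose, 3 fell and 23 did not pass, with a median log2 difference of -0.02. Over all tested genes 9.63% rose and 5.98% fell. All 7 of these calls were lost when 1 or more single arrays were left out, as was that of Cdkn1b. The calls of Cdkn1c, Cdkn2a and Cdkn2b held without any of the 4 arrays. The share of all called genes that were lost in this way was not counted.

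On chromosome 4 the measured order is Ifna1, Ifne, Mtap, Cdkn2a, Cdkn2b, Dmrta1, Zfp352 and Elavl2. Mtap, which encodes an enzyme of methionine salvage, read 7763 and 7422 in Wt and 9058 and 8418 in Eed cKO cells (0.20 on the log2 scale, SE 0.05, limma adjusted p = 0.0456), a call that was lost without Eed cKO 1 (0.104), Wt 1 (0.0713) or Wt 2 (0.214). Dmrta1, on the other side, encodes a DM-domain transcription factor and read 676.3 and 722.52 in Wt and 969.12 and 955.47 in Eed cKO cells (0.44, SE 0.08, adjusted p = 0.0123; 0.0813 without Wt 1). The point estimates were highest at the inhibitor pair and lower at Mtap and Dmrta1, but the contrast between the genes was not tested. The limma confidence interval of Dmrta1 (0.26 to 0.63) overlapped those of Cdkn2a (0.50 to 0.88) and Cdkn2b (0.43 to 0.81). That of Mtap (0.08 to 0.33) overlapped neither. Ifne, Zfp352 and Elavl2 lay below the filter level and were not tested.

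**Figure D3:**
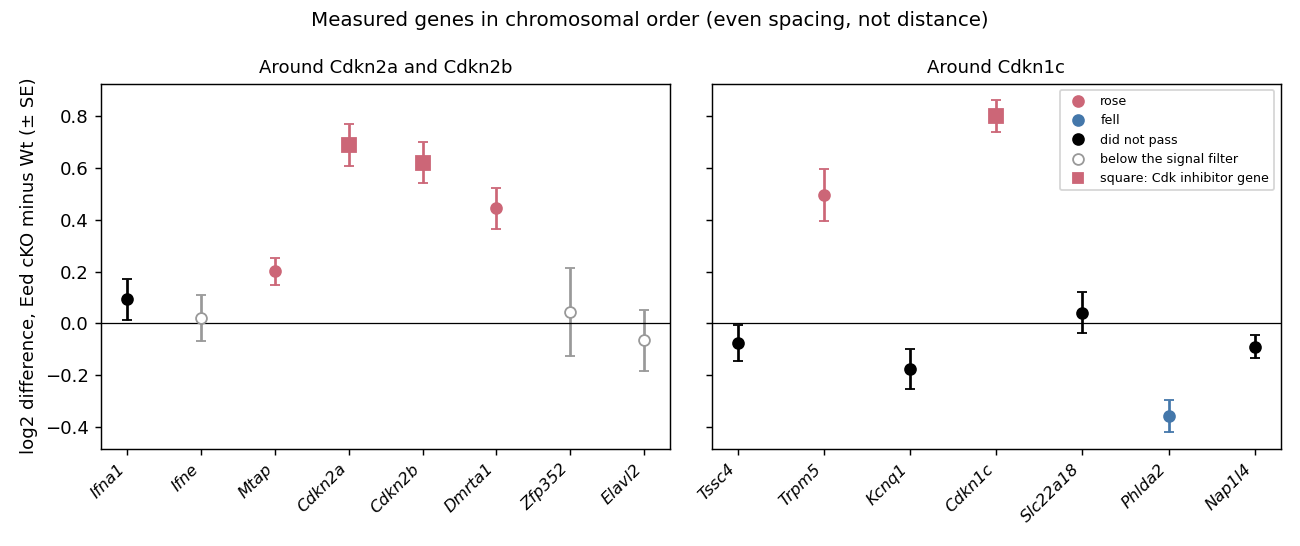
Log2 difference (Eed cKO minus Wt, vertical axis) of the genes around Cdkn2a and Cdkn2b on chromosome 4 and around Cdkn1c on chromosome 7, set out in gene order without distances. Points are estimates, bars are 1 SE and open circles are genes below the filter level, and the inhibitor genes (squares) stand above the other genes of their panel.

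Cdkn1c lies in the Kcnq1 domain on chromosome 7, a cluster of imprinted genes known to be silenced on the paternal allele, in the placenta in part through PRC2. The long noncoding RNA Kcnq1ot1 was not matched by name, and no value is given for it. Of 13 genes of the domain and its edges that were tested, 4 rose (Cdkn1c included), 1 fell and 8 did not pass. The median log2 difference of the 13 was -0.08. Over all tested genes, 9.63% rose and 5.98% fell. Tspan32, a tetraspanin of blood cells, rose by 0.68 (705.17 and 699.65 against 1207 and 1080, limma adjusted p = 0.00329), and Cd81, a broadly expressed tetraspanin, by 0.20 (adjusted p = 0.00914). Osbpl5, an oxysterol-binding protein gene, rose by 0.23 (adjusted p = 0.0289, lost without Eed cKO 2, 0.0536, Wt 1, 0.197, or Wt 2, 0.0775).

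Phlda2, an imprinted growth suppressor of the placenta that lies 2 places from Cdkn1c, went the opposite way. It read 4121 and 4346 in Wt and 3384 and 3211 in Eed cKO cells (-0.36 on the log2 scale, SE 0.06, limma adjusted p = 0.0106, and 0.0679 without Wt 2). The nearest measured genes on either side of Cdkn1c did not pass: Slc22a18, an imprinted transporter gene, differed by 0.04 (95% interval -0.15 to 0.23) and Kcnq1, a potassium channel gene, by -0.18 (-0.36 to 0.01). Trpm5, a cation channel gene one place beyond Kcnq1, rose by 0.50 (adjusted p = 0.0192, and 0.089 without Wt 2). The Wt mean of Trpm5, 621.675, was below the filter level of 625.574, and its Eed cKO values (952.35 and 828.93) brought it past. Neither interval of the genes beside Cdkn1c held the estimate of Cdkn1c, and the contrast between the genes was not tested.

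Around the remaining inhibitors, Gprc5a, which encodes an orphan receptor and lies near Cdkn1b, rose by 0.65 while Cdkn1b fell (limma adjusted p = 0.0452, lost without Eed cKO 1, 0.0962, or Wt 2, 0.107). Cpne5, a copine gene near Cdkn1a, fell by 0.33 (adjusted p = 0.0452, lost without Eed cKO 2, 0.0853, Wt 1, 0.273, or Wt 2, 0.0979), and Slc44a2, a choline transporter gene near Cdkn2d, fell by 0.15 (adjusted p = 0.0146, lost without Wt 1, 0.0536, or Wt 2, 0.0705). No tested neighbour of Cdkn2c passed at the adjusted threshold.

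The kinases and cyclins on which the inhibitors act were examined next. Of 12 tested genes for G1 cyclins, their kinases and the Rb family, 5 rose, 1 fell and 6 did not pass. The median log2 difference of the 12 was 0.09. Over all tested genes, 9.63% rose and 5.98% fell. All 3 D-type cyclins, the partners of Cdk4 and Cdk6 that Ink4 proteins compete with, rose. Ccnd1 read 7632 and 6886 in Wt and 17063 and 17248 in Eed cKO cells (1.24 on the log2 scale, SE 0.05, limma adjusted p = 8.6e-05), and Ccnd2 and Ccnd3 rose by 0.31 (0.000973) and 0.29 (0.00224).

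Ccne2, which encodes a cyclin E partner of Cdk2, fell by 0.37 on the log2 scale (limma adjusted p = 0.0128, a call lost without Wt 1). The other cyclin E gene, Ccne1, read 5548 and 5075 in Wt and 6111 and 6225 in Eed cKO cells. Its log2 difference of 0.22 did not pass (limma adjusted p = 0.0508). Named after their values were seen, the remaining genes that rose were Cdk6, by 0.46 (adjusted p = 0.0198), and Rb1, the pocket protein that these kinases phosphorylate, by 0.34 (0.0184, and 0.0845 without Wt 1). Cdk4 did not pass (log2 difference -0.03, adjusted p = 0.521).

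Downstream of these kinases, none of 10 E2f and Dp factors passed the limma test after adjustment, while 4 had an unadjusted p under 0.05 and the methods' t-test, the study's unpaired test run on the same values, called 0 after adjustment. Quantile normalization or median centring of the arrays called 2 of the 10 lower. Of 23 tested genes for DNA replication and mitosis 1 rose, 1 fell and 21 did not pass, with a median log2 difference of -0.01. The shares over all tested genes were 9.63% higher and 5.98% lower. Rrm2, a ribonucleotide reductase subunit gene, rose by 0.21 (adjusted p = 0.0463, lost without Eed cKO 2, 0.109, or Wt 1, 0.222).

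The Eed cKO arrays differed from each other in these genes. Mki67, a marker of cycling cells named here after its values were seen, read 8811 and 8790 in Wt and 7588 and 10053 in Eed cKO cells. Of the 23 genes, 19 were higher on Eed cKO 2 than on Eed cKO 1, against 12 that were higher on Wt 2 than on Wt 1. Without Eed cKO 1, 7 of the 23 were called higher and 1 lower, and without Eed cKO 2, 0 were called higher and 6 lower. Cdkn2c also read higher on Eed cKO 2, with a log2 gap of 0.16 between the Eed cKO arrays, whereas the corresponding gaps of Cdkn1c, Cdkn2a and Cdkn2b were 0.02, 0.00 and 0.04 in size.

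Known regulators of the family went both ways. Among 21 tested regulators of the Ink4 genes, 5 rose, 1 fell and 15 did not pass (median 0.05). Over all tested genes, 9.63% rose and 5.98% fell. Twist1 and Tbx3, transcription factors known to repress Cdkn2a, rose by 1.21 (limma adjusted p = 0.000307) and 0.41 (0.00534), and Bmi1, a Polycomb repressive complex 1 subunit known to repress the locus, rose by 0.57 (0.00133). Ets1, known as an activator of Ink4a, fell by 0.30 on the log2 scale (0.0109, and 0.074 without Wt 2). The other two that rose, named after their values were seen, were Tbx2, a repressor related to Tbx3, by 0.40 (0.0235, lost without Wt 1, 0.0798, or Wt 2, 0.116), and Mdm2, the p53 ubiquitin ligase that p19Arf acts on, by 0.15 (0.047, lost on leaving out any of the 4 arrays). The count of genes that rose was 3 without Wt 1 and 3 without Wt 2.

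Among 20 tested regulators of the Cip/Kip genes, 6 rose, 1 fell and 13 did not pass (median 0.04). The shares over all tested genes were 9.63% higher and 5.98% lower. Smad3, the TGF-beta signal transducer, rose by 0.60 (limma adjusted p = 0.000949), Foxo3, a forkhead factor that activates Cdkn1b, by 0.55 (0.00224), and Fbxw7, a ubiquitin ligase subunit, by 0.58 (0.00808). Skp2, whose product marks p27Kip1 for degradation, did not pass (log2 difference -0.12, adjusted p = 0.198). The 1 gene that fell depended on single arrays, with 3 genes called lower without Eed cKO 1 and 0 on leaving out any of the others.

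Genes activated by p53, the list that Cdkn1a is best known from, were mostly on the upper side. Of 19 tested, Cdkn1a not among them, 9 rose, 0 fell and 10 did not pass, with a median log2 difference of 0.24. The lowest log2 difference of the 19 was -0.40 and did not pass. The count of 0 that fell changed without Eed cKO 1 and without Wt 1. Among all tested genes 9.63% rose. The Eed cKO arrays differed here too: 2 of the 19 were higher on Eed cKO 2 than on Eed cKO 1. On the Wt arrays, 9 of the 19 were higher on Wt 2 than on Wt 1. Perp, a desmosomal and apoptotic p53 target, read 4511 and 4122 in Wt and 10885 and 9530 in Eed cKO cells (1.23 on the log2 scale, SE 0.08, limma adjusted p = 0.000241). Trp53inp1, Eda2r and Phlda3 rose by 0.70 (0.000356), 0.91 (0.00138) and 0.48 (0.00264). The number that rose was 5 without Wt 1, 6 without Wt 2 or Eed cKO 1 and 11 without Eed cKO 2, and 6 with median centring. Trp53 itself did not pass (log2 difference -0.01, adjusted p = 0.822).

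Cdkn2a and Cdkn1a are classical markers of senescent cells. Of 13 tested genes associated with such cells, 3 rose, 1 fell and 9 did not pass (median 0.06). The shares over all tested genes were 9.63% higher and 5.98% lower. Igfbp5 and Igfbp3, binding proteins of insulin-like growth factors, rose by 1.82 (limma adjusted p = 7.59e-05) and 0.97 (0.000416). Mmp13, a collagenase of hypertrophic cartilage, rose by 1.92 (0.0108), and Mmp3, or stromelysin, fell by 0.79 on the log2 scale (0.00106). The count of genes that rose was 6 without Wt 2. The inflammatory genes Il6, Il1a, Il1b and Cxcl2 lay below the filter level. The other genes with Cdkn in their symbols, Cdkn3, Cdkn2aip and Cdkn2aipnl, which are not inhibitors of this family, did not pass either (log2 differences 0.27, -0.18 and -0.01, limma adjusted p = 0.206, 0.22 and 0.9; 0 of the 3 had an unadjusted p under 0.05 and the methods' t-test called 0).

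**Figure D4:**
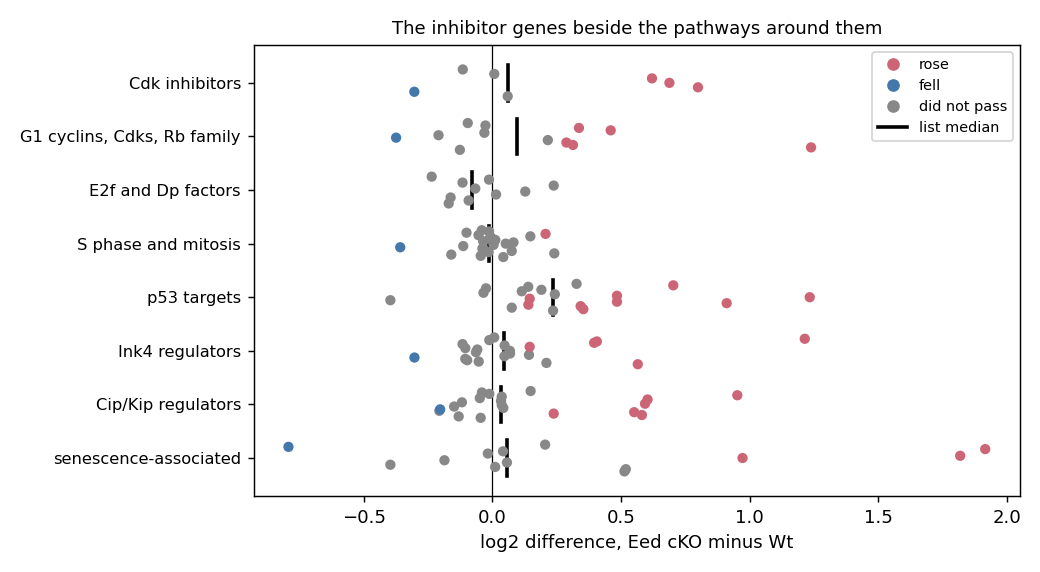
Log2 difference (Eed cKO minus Wt, horizontal axis) of each tested gene of the inhibitor family and of the lists around it, with 1 point per gene, colours for genes that rose, fell or did not pass at an adjusted p of 0.05, and a black bar for each list's median. The p53 target list has its median at 0.24, and the E2f and Dp list has no gene past the threshold.

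Markers of some other cell types differed between the groups, and their part in the inhibitor results was not tested. Over all tested genes, 9.63% rose and 5.98% fell. Chondrocyte markers were bright on all arrays, with summed signals of 301255 and 306933 in Wt and 295996 and 294032 in Eed cKO cells, and Col2a1 between 36621 and 37633. Of 13 such markers, 1 rose (Matn1) and 2 fell (Acan and Cnmd, with calls lost without Wt 2 at limma adjusted p = 0.149 and 0.121). With median centring 6 of the 13 were lower, and without the intensity trend 0 were. Osteoblast markers summed to 34341 and 42037 in Wt and 55925 and 67986 in Eed cKO cells, and 5 of 7 tested rose (Runx2, Sp7, Alpl, Ibsp and Col1a1, the last lost without Eed cKO 2 or Wt 1). Fibroblast and perichondrium markers summed to 91195 and 97513 in Wt and 103369 and 110894 in Eed cKO cells, with 7 of 11 higher and 1 lower. Within both groups the osteoblast sum was higher on replicate 2. Cdkn2a and Cdkn2b also read higher on Wt 2 than on Wt 1, by 0.10 and 0.14 on the log2 scale, while Cdkn1c read lower there by 0.16. On Eed cKO 2, Cdkn2b read lower than on Eed cKO 1 by 0.04, Cdkn1c read higher by 0.02 and Cdkn2a was nearly level (0.00).

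Of the other cell types listed, only the endothelial sum was higher on both Eed cKO arrays than on both Wt arrays. Endothelial markers summed to 12649 and 12344 in Wt and 16924 and 16265 in Eed cKO cells (2 of 7 tested higher, 1 lower). Most of that rise came from Eng, the endoglin gene, named after its values were seen, which read 5047 and 4755 in Wt and 9149 and 8079 in Eed cKO cells. Muscle markers summed to between 22081 and 23357 on all arrays (3 of 9 higher, 1 lower), macrophage and granulocyte markers to between 13049 and 14750 (0 of 8 higher, 2 lower) and red cell markers to between 15901 and 18286 (0 of 4 higher, 1 lower). The shares over all tested genes were 9.63% higher and 5.98% lower. None of the markers found was at 0 on any array.

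For each inhibitor gene that passed, the tested genes with the most similar pattern were sought as the smallest distance over the 4 arrays between log2 signals centred on each gene's mean, among 14943 other genes. Closest to Cdkn1c were Foxa2 (distance 0.04), a forkhead factor of hypertrophic chondrocytes, and Plau (0.05), the urokinase gene. Closest to Cdkn2a were Gsn (0.02), the gelsolin gene, and Prss23 (0.03), a serine protease gene, and closest to Cdkn2b were Htr2a (0.02), a serotonin receptor gene, and Tes (0.05), for a focal adhesion protein. Closest to Cdkn1b were Iqcd and Daam1 (0.02 each), the latter a formin of Wnt signalling. With 4 arrays many genes come close to any pattern: within a distance of 0.2 there were 122 genes for Cdkn1c, 239 for Cdkn2a, 254 for Cdkn2b and 1835 for Cdkn1b.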

How the data were processed

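The authors deposited linear array intensities, 1 value per array for 35512 probe sets. A supplementary sheet name mentions dChip signals, while background correction and normalization are not given in the sources read for this work. The 2 deposited tables held identical intensities. Ratio columns of Eed cKO over Wt in 1 table, which the authors computed, were not used. Names came from the file and were updated through RefSeq (GRCm38.p6). Of the probe sets, 18660 matched by accession, 2423 by symbol and 1957 through older names; 2135 stayed under the deposited name and 10337 were unnamed.

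The brightest probe set stood for each gene, and genes whose mean lay below 625.574 (percentile 33) were dropped. Values were taken as log2(intensity + 32), so differences of dim genes are understated. They were tested with limma 3.58.1 in R 4.3.3 (lmFit, eBayes with intensity trend, two-sided, group only), with Benjamini-Hochberg adjustment over 14944 genes at 0.05. The script was tested on simulated data. Arrays give no read depth, and their number (4) limits precision.

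Groups and replicate numbers came from the sample titles. The inhibitor genes, the gene lists and the tests were chosen with earlier results of these data known. Named were all inhibitor genes, up to 4 genes of each pathway list with the smallest p (all that passed where 5 or fewer did), every neighbour that passed and the 2 genes nearest in pattern to each inhibitor gene that passed (not for the marker lists, given mainly as counts and sums). Ccne1, Cdk4, Cdk6, Rb1, Mki67, Skp2, Trp53, Tbx2, Mdm2, Slc22a18, Kcnq1, Cdkn3, Cdkn2aip, Cdkn2aipnl and the marker genes were named after their values were seen. Alternatives were the pseudocount, no filter, no trend, quantile normalization, median centring, the mean of probe sets, a replicate block, leaving out each array and the methods' t-test. A comparison of protein sequences was not made here, and the values of 2 listed genes are not reported here.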

Additional observations from a re-analysis of the deposited data

How the results depend on the processing

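Over 14 alternatives the log2 differences of Cdkn1c (0.72 to 0.88), Cdkn2a (0.55 to 0.74), Cdkn2b (0.54 to 0.69) and Cdkn1b (-0.35 to -0.26) kept their direction, and their calls held except under the methods' t-test for all 4 and without Wt 1 for Cdkn1b. Cdkn2c, which never passed, changed sign with quantile normalization (-0.0087), median centring (-0.039), without Wt 2 (-0.0026) and without Eed cKO 2 (-0.074); the highest value on leaving out an array was 0.0897, without Eed cKO 1. The methods' t-test had an unadjusted p under 0.05 for 5 of the 7 genes (2949 of all genes); after Benjamini-Hochberg adjustment it called 0 of the 7 (adjusted p 0.173 to 0.223 for the 4 genes named first), 2 of all genes higher and 2 lower, and 0 neighbours either way. Without the trend 574 genes were lower and 2 neighbours higher, and with median centring 1556 genes were lower, 2 neighbours higher and 5 lower. The causes were not tested.

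Leaving out single arrays gave 928 (without Wt 1) to 1562 genes higher and 385 (without Wt 2) to 1170 lower (509 without Wt 1), 3 inhibitor genes higher each time and 0 (without Wt 1) to 1 lower. Neighbours ranged from 1 (without Wt 2; 2 without Wt 1 or Eed cKO 1) to 4 higher and from 0 (without Wt 2; 1 without Wt 1) to 3 lower. The remaining array of a group was then assumed to vary like the other group.

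By the study's methods, control and knockout mice were compared as littermates, but no litter was assigned to any array here. The replicate numbers were not shown to pair arrays. Same-numbered deviations correlated at -0.06 over the tested genes. The correlation was 0.10 without genes on X and Y, where the sex balance differed within each pair of numbers. With the number as a block, 1539 genes were higher and 972 lower, and 3 inhibitor genes rose and 1 fell (adjusted p 0.000158 for Cdkn1c, 0.00169 for Cdkn2a, 0.00234 for Cdkn2b and 0.00945 for Cdkn1b).

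Groups of 2 arrays allow no check for a deviating array. Dim signals near background (Cdkn2a) and very bright ones (Cdkn1a) can understate a change.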
